A study of Homo sapiens with 6 samples.

Results

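The genes described here encode brakes on the ERK kinase pathway or on related kinases. They are the dual-specificity phosphatases DUSP1, DUSP2, DUSP4, DUSP5, DUSP6 and DUSP10, the Sprouty proteins SPRY2 and SPRY4, and the Sprouty-related proteins SPRED1 and SPRED2. They were chosen by name, and all 10 had 1 row each among the 58735 genes of the deposited table. The libraries came from SZ95, an immortalised cell line of the human sebaceous gland. In 3 libraries the cells had received a TRPV3-overexpression plasmid (genotype label TRPV3 overexpression), and in 3 they had received a mock plasmid (genotype label WT), with 24 h in the titles of both groups. TRPV3 is a calcium-permeable cation channel, and the question put by the design text is its part in sebocyte inflammation. A single cell line was used, the replicates are biological per the design text, and the sources used here do not name the promoter on the plasmid or say from when the 24 h were counted.

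Growth factor receptors and calcium signals activate RAS, which switches on the kinases RAF, MEK and ERK in turn. Active ERK induces the genes of its own inhibitors, so that the level of these transcripts is widely read as a record of recent ERK signalling. DUSP phosphatases remove phosphate from MAP kinases: DUSP1, DUSP2, DUSP4 and DUSP5 act in the nucleus, DUSP6 acts on ERK in the cytoplasm, and DUSP10 prefers the related kinases JNK and p38. Sprouty proteins interrupt the path between receptor and RAF, and SPRED proteins bring the RAS inhibitor neurofibromin to the membrane.

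With the TRPV3 plasmid the phosphatase transcripts lay above mock by between 13.2% for DUSP4 and 58.3% for DUSP6 among the 5 phosphatases that could be tested, the Sprouty transcripts by 13.1% and 14.9%, and the SPRED transcripts lay 6.99% and 10.9% below mock (changes of the mean FPKM, -6.99% for SPRED1 and -10.9% for SPRED2). FPKM counts fragments per kilobase and is corrected for sequencing depth. None of these differences passed the limma test at an adjusted p under 0.05, fitted across the 12177 genes that averaged 1 FPKM or more. DUSP2 was under that limit, and the other 9 genes averaged above it in each group. Called genes were 0 of 9 with all libraries, against 5 of all 12177 genes (0.0411%), and 0 of 9 by voom on recovered reads, which called 0.0493% of all genes higher. An unadjusted limma p under 0.05 was found for 4 of 9, all higher with TRPV3: DUSP1, DUSP4, DUSP5 and DUSP6. Of all genes tested, 3.28% were higher and 1.21% lower at that p.

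**Figure D1:**
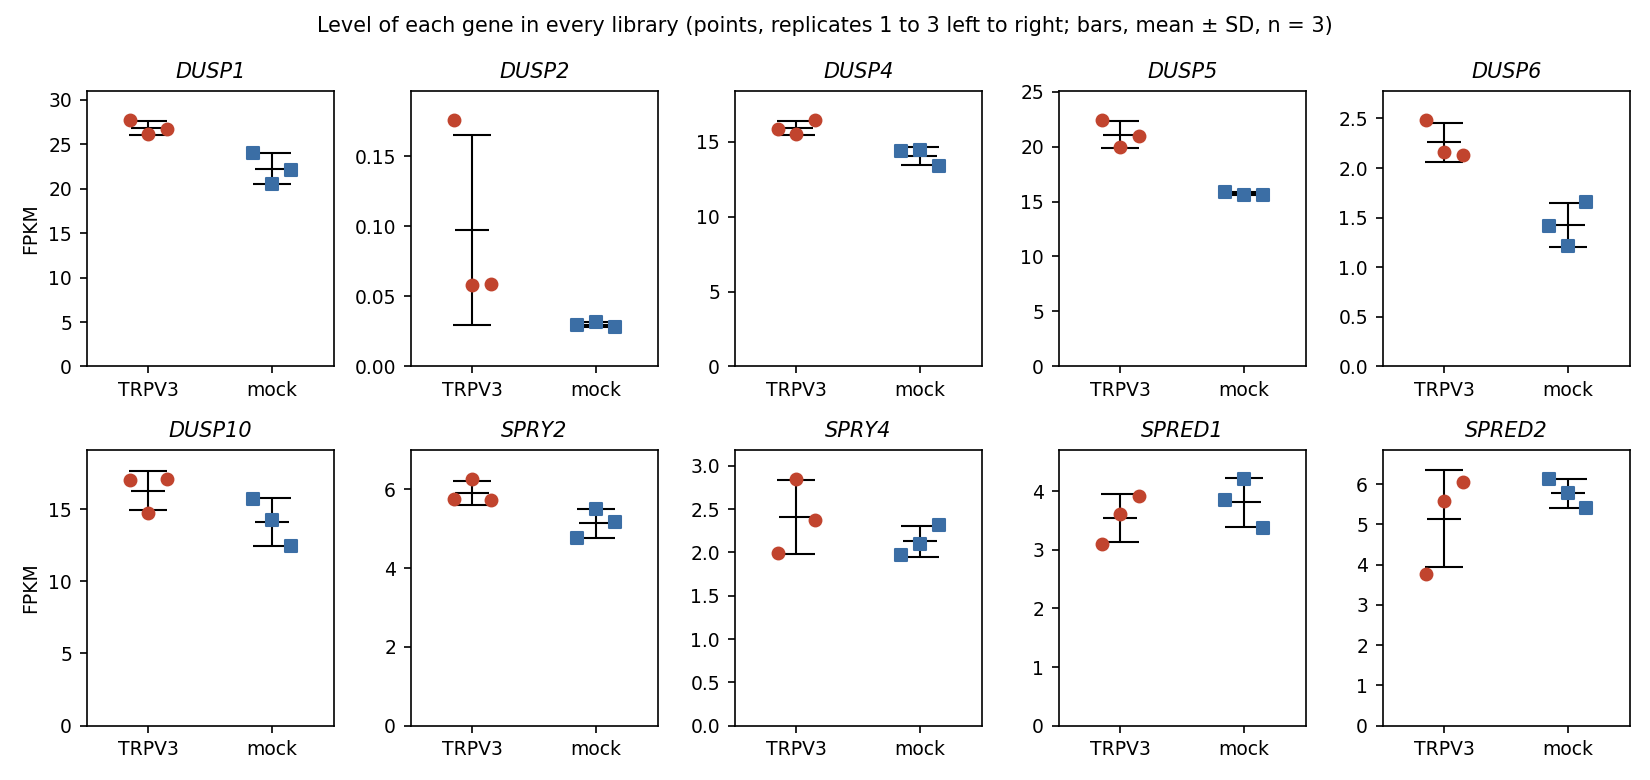
Level of the 10 genes in every library. The vertical axes give FPKM from 0 and differ between panels; points are the libraries (TRPV3 circles, mock squares), and bars give the mean and SD of 3 libraries. In DUSP1, DUSP2, DUSP4, DUSP5, DUSP6 and SPRY2 all TRPV3 points exceed all mock points, while in DUSP10, SPRY4, SPRED1 and SPRED2 the groups overlap.

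The libraries held between 16015998 and 18365785 reads, recovered from FPKM and gene length, and the 9 tested genes had between 91 and 2090 reads in a library. TRPV3 was at 648 ± 103 FPKM in the libraries of its plasmid and at 0.404 ± 0.0400 FPKM in mock (SD, n = 3 each), so the library labels held for the transfected gene. Of 11 markers of sebocytes and simple epithelium 10 reached a mean of 1 FPKM, led by KRT19, KRT7, KRT18 and KRT8. The 11 summed to between 2520 and 3446 FPKM with TRPV3 and between 2505 and 2557 FPKM in mock. Keratinocyte markers (4 of 6 at a mean of 1 FPKM, mainly KRT5) summed to between 169 and 182 FPKM with TRPV3 and between 161 and 193 FPKM in mock, and KRT1 had no read in 5 of the 6 libraries. Fibroblast markers summed to between 2.11 and 2.25 FPKM with TRPV3 and between 2.47 and 3.0 FPKM in mock, mostly from COL1A1 (1 of 6 markers reached 1 FPKM). Melanocyte markers (0 of 4 at a mean of 1 FPKM), leukocyte markers (1 of 5) and endothelial markers (1 of 3) each summed to at most 1.80 FPKM in any library, and the B cell marker MS4A1 had no read. None of these markers was called. The part of these differences in the values below was not tested. In such bulk samples fewer cells of a type and less RNA per cell cannot be told apart. TRPV3 replicate 1 stood apart from the other TRPV3 libraries by gene length: against them it was 0.33 higher on the log2 scale at the median of genes under 2000 bases and 0.22 lower at that of genes of 6000 bases or more (-0.22).

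By level, DUSP1 was the most abundant of the 10 in both groups. Means with TRPV3 were 26.9 FPKM for DUSP1, 21.1 for DUSP5, 16.3 for DUSP10 and 15.9 for DUSP4. In mock they were 22.3 FPKM for DUSP1, 15.7 for DUSP5, 14.1 for DUSP10 and 14.1 for DUSP4. The levels of DUSP10 and DUSP4 overlapped between libraries in both groups, and those of DUSP5 and DUSP10 overlapped in mock only. A lower tier followed, with SPRY2 at 5.91, SPRED2 at 5.14 and SPRED1 at 3.54 FPKM with TRPV3, against 5.14, 5.77 and 3.80 FPKM in mock for the same genes. SPRY2 stood above SPRED2 with TRPV3 and below it in mock, and the libraries of that pair overlapped in each group. SPRY4 and DUSP6 came next, and DUSP2 was close to the limit of detection.

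DUSP5, a nuclear phosphatase that acts on ERK and little else, had the lowest p of the 9. Its level was 22.4, 19.9 and 20.9 FPKM in TRPV3 replicates 1 to 3, against 15.9, 15.6 and 15.6 FPKM in mock replicates 1 to 3. The mock libraries had an SD of 0.154 FPKM, and the lowest TRPV3 library was above all of them. Its log2 fold change of FPKM + 1 was 0.40 (SE 0.07, 95% interval 0.23 to 0.57, limma adjusted p = 0.374), in the direction shown by 3 of 3 TRPV3 libraries. Its fold change ranked above that of 97.9% of genes tested and its p was 29th in order. Without TRPV3 replicate 1 the log2 fold change was 0.36 (limma adjusted p = 0.0914), and by voom on recovered reads without that library it was 0.38 and was called (voom adjusted p = 0.0197). In that voom fit 0.575% of all genes tested were called higher, and DUSP5 was the 1 called among these 9. DUSP5 (ENSG00000138166) lies on chromosome 10, 110497838 to 110511544, plus strand, hg38, and its pseudogenes DUSP5P1 and DUSP5P2 reached no more than 7 reads and 1 read per library.

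DUSP6, the cytoplasmic ERK phosphatase that is often used as a marker of ERK activity, had the highest fold change of the 9 tested genes, at a low level. It was at 2.48, 2.16 and 2.13 FPKM in TRPV3 replicates 1 to 3 and at 1.41, 1.21 and 1.66 FPKM in mock replicates 1 to 3. These values rest on 203, 179 and 173 reads with TRPV3 and on 115, 91 and 140 reads in mock. Every TRPV3 library was above every mock library, and the ratio of means was 1.58. Fitted, the log2 fold change was 0.43 (SE 0.10, 95% interval 0.18 to 0.67, limma adjusted p = 0.681); the added 1 FPKM shrinks it, and it was 0.66 by voom on reads and 0.63 with 0.1 FPKM added. DUSP6 (ENSG00000139318; chromosome 12, 89347232 to 89353271, minus strand) shares 1875 exonic bases with AC024909.2 on the opposite strand, for which no library held over 2 reads.

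DUSP1 is an immediate-early phosphatase that acts on p38 and JNK as well as ERK. It was at 27.7, 26.1 and 26.8 FPKM with TRPV3, against 24.1, 20.6 and 22.2 FPKM in mock. The groups did not overlap, and the mock libraries were the more spread (SD 1.76, against 0.811 with TRPV3). The log2 fold change was 0.26 (SE 0.08, 95% interval 0.07 to 0.46, limma adjusted p = 0.755), but 0.17 with FPKM rescaled to TPM and 0.15 with the gene-length trend removed. DUSP1 (ENSG00000120129) lies on chromosome 5, 172768090 to 172771195, minus strand.

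DUSP10, the phosphatase of JNK and p38, was at 17.0, 14.7 and 17.1 FPKM in TRPV3 replicates 1 to 3 and 15.7, 14.2 and 12.4 FPKM in mock replicates 1 to 3. The groups overlapped, since TRPV3 replicate 2 was below mock replicate 1. A log2 fold change of 0.20 was fitted (SE 0.11, 95% interval -0.05 to 0.45, limma adjusted p = 0.755), with 0.11 without mock replicate 3 and 0.27 without mock replicate 1. With FPKM rescaled to TPM it was 0.11. DUSP10 (ENSG00000143507) lies on chromosome 1, 221701424 to 221742176, minus strand.

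The bases in front of the start sites are shown for the genes whose groups did not overlap, where the promoter table held them clear of annotated exons: DUSP1, DUSP2 and SPRY2. The promoters are from RefSeq (GRCh38.p14) and matched 8 of the 10 genes by symbol, all but DUSP4 and DUSP5. Each is the 250 bases before the start site, all on the minus strand, printed 5′ to 3′: chr5:172771196-172771445 for DUSP1, chr2:96145441-96145690 for DUSP2 and chr13:80341127-80341376 for SPRY2. The windows of DUSP1 and DUSP2 adjoin the gene models used for the expression values, while that of SPRY2 ends 175 bases upstream of its gene model. Capitals mark the cyclic AMP response element TGACGTCA, the element that calcium- and cyclic AMP-activated CREB binds.
DUSP1: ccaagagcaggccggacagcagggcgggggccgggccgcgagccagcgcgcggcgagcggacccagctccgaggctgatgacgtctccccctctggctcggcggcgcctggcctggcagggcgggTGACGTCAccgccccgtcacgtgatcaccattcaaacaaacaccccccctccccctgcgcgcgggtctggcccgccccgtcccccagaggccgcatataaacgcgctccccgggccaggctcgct
DUSP2: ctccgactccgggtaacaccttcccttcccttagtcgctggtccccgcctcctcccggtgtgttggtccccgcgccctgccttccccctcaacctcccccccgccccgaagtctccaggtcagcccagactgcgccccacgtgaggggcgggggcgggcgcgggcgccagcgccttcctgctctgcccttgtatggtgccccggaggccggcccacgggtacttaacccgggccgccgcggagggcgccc
SPRY2: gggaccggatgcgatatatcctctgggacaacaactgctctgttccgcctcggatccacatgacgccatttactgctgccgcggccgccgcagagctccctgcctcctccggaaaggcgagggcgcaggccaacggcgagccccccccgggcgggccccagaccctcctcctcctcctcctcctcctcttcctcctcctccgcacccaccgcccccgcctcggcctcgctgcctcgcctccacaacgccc

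The full element stood in 1 of the 8 promoters, that of DUSP1, from base -125 to base -118 before the start site. It stood in 482 of 27305 promoters of the same length (1.77%). The other motifs, searched on both strands, were TGANTCA of AP-1 (in 6.60% of all promoters) and CCGGAAGT of ETS factors (3.64%). Also searched were the CArG box of serum response factor (1.14%) and the NF-kB site (5.05%). Of the 8 windows, 0 held any of these other motifs. The windows of DUSP6 and SPRED1 lay wholly in exons of the gene itself. Those of SPRY4, DUSP10 and SPRED2 held 170, 87 and 38 exonic bases. For DUSP6, SPRED1 and SPRY4 the bases before the start of the gene model were not searched. A match is a stretch of letters and was not measured as a bound site. The windows of DUSP1, DUSP2 and SPRY2 were 74.4%, 74.0% and 70.4% G and C.

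DUSP2, a nuclear phosphatase best known from activated leukocytes, was barely detected. It had 6, 2 and 2 reads in TRPV3 replicates 1 to 3 and 1 read in each mock library, or 0.176, 0.0578 and 0.0592 FPKM against 0.0295, 0.0319 and 0.0284 FPKM. The groups did not overlap, but 3 reads, the count that 0 reads still allow, already correspond to between 0.0852 and 0.0957 FPKM for this gene. Summed over libraries there were 10 reads with TRPV3 and 3 in mock, a ratio of 3.27 with a 95% exact interval of 0.842 to 18.5 that covers counting error only. DUSP2 (ENSG00000158050) lies on chromosome 2, 96143166 to 96145440, minus strand.

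DUSP4, a nuclear phosphatase induced by sustained ERK activity, had the most reads of the 10 genes. It was at 15.9, 15.5 and 16.5 FPKM in TRPV3 replicates 1 to 3, from 2032, 2015 and 2090 reads. In mock replicates 1 to 3 it was at 14.4, 14.5 and 13.4 FPKM, from 1835, 1703 and 1772 reads. The groups did not overlap, by a narrow margin. For DUSP4 the log2 fold change was 0.17 (SE 0.07, 95% interval 0.0004 to 0.34, limma adjusted p = 0.755), and it was 0.08 with FPKM rescaled to TPM. DUSP4 (ENSG00000120875) lies on chromosome 8, 29333064 to 29350668, minus strand.

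Summed, the 6 phosphatases were at 82.6 ± 3.66 FPKM with TRPV3 and 67.6 ± 3.36 FPKM in mock (SD, n = 3 each), 22.1% higher with TRPV3. DUSP1 made up between 32.1% and 33.3% of the sum with TRPV3 and between 31.1% and 33.9% in mock. The share of DUSP5 was between 25.1% and 26.1% with TRPV3 and between 22.2% and 23.9% in mock, and that of DUSP4 between 18.5% and 19.8% with TRPV3 and between 20.1% and 21.9% in mock. DUSP6 made up between 2.56% and 2.90% with TRPV3 and between 1.83% and 2.54% in mock. For DUSP5, DUSP4 and DUSP6 the shares of the groups did not overlap, while those of DUSP1 and DUSP10 did. The shares of DUSP2 did not overlap either, on at most 6 reads in a library. All shares are parts of the same sum, so a rise in any of them lowers the rest. DUSP4 had the lower share with TRPV3 although its mean level was higher there (15.9 against 14.1 FPKM).

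SPRY2, which blocks signalling from growth factor receptors and is itself induced by ERK, was at 5.75, 6.25 and 5.72 FPKM in TRPV3 replicates 1 to 3, against 4.76, 5.50 and 5.17 FPKM in mock replicates 1 to 3. The groups did not overlap. For SPRY2 the log2 fold change was 0.17 (SE 0.08, 95% interval -0.02 to 0.36, limma adjusted p = 0.755), and it was 0.10 with FPKM rescaled to TPM and 0.10 with the gene-length trend removed. SPRY4, a second ERK-induced Sprouty, was at 1.99, 2.84 and 2.38 FPKM with TRPV3 and 1.97, 2.09 and 2.32 FPKM in mock. These groups overlapped, and the 3 TRPV3 libraries covered a wider range than the mock libraries. SPRY4 had a log2 fold change of 0.12 (SE 0.11, 95% interval -0.15 to 0.39, limma adjusted p = 0.755), and its values ran from 0.03 without TRPV3 replicate 2 to 0.21 without TRPV3 replicate 1. SPRY2 (ENSG00000136158) lies on chromosome 13, 80335976 to 80340951, and SPRY4 (ENSG00000187678) on chromosome 5, 142310427 to 142326455, both on the minus strand.

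SPRED2 was at 3.77, 5.58 and 6.06 FPKM in TRPV3 replicates 1 to 3 and 6.12, 5.77 and 5.41 FPKM in mock replicates 1 to 3. TRPV3 replicate 1 was the lowest of the 6 libraries, and the other TRPV3 libraries lay within the range of mock. The log2 fold change was -0.16 (SE 0.15, 95% interval -0.52 to 0.20, limma adjusted p = 0.755) with all libraries and 0.01 without TRPV3 replicate 1. SPRED1 was at 3.09, 3.61 and 3.91 FPKM with TRPV3 and 3.85, 4.20 and 3.37 FPKM in mock, and its groups overlapped. SPRED1 had a log2 fold change of -0.08 (SE 0.11, 95% interval -0.33 to 0.17, limma adjusted p = 0.791), with -0.19 after rescaling to TPM and -0.01 without TRPV3 replicate 1. SPRED1 (ENSG00000166068) lies on chromosome 15, 38252326 to 38357249, plus strand, and SPRED2 (ENSG00000198369) on chromosome 2, 65310851 to 65432637, minus strand.

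**Figure D2:**
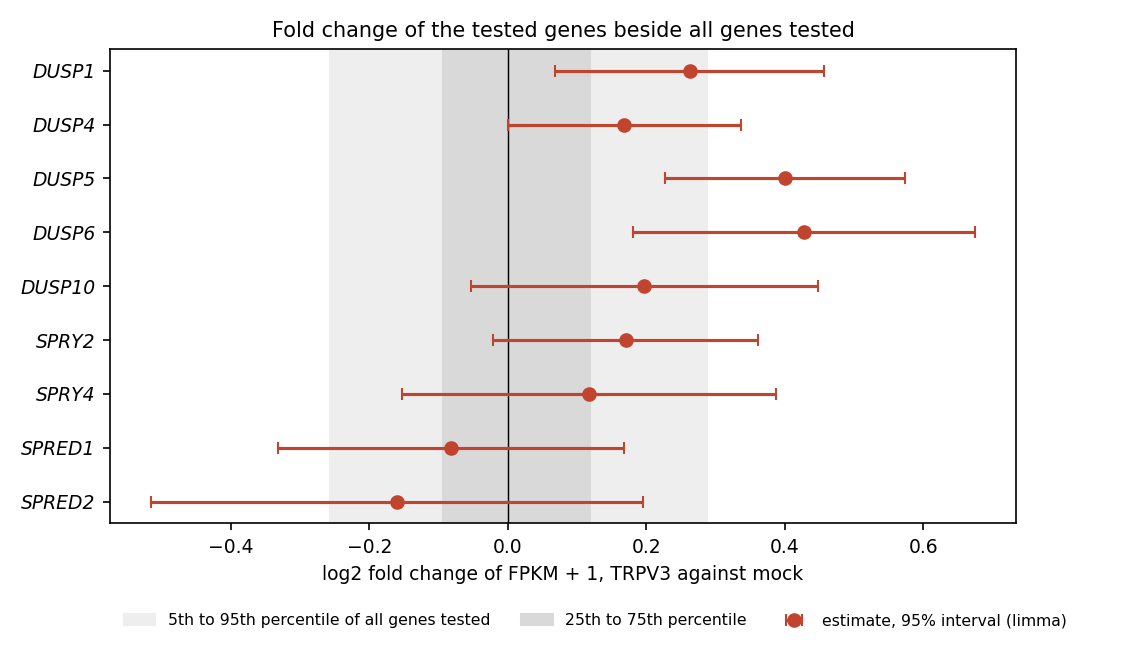
Fitted log2 fold change of FPKM + 1, TRPV3 against mock, for the 9 tested genes (points) with 95% limma intervals (bars), over bands for the middle of all 12177 genes tested. DUSP5 (0.40) and DUSP6 (0.43) lie above the 95th percentile of all genes (0.29), and SPRED2 (-0.16) is the lowest of the 9.

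Across the 9 tested genes the median log2 fold change was 0.17, against 0.01 over all genes tested. It was 0.26 for the 5 phosphatases and 0.02 for the 4 Sprouty and SPRED genes, a difference that was not tested. All 3 TRPV3 libraries exceeded all 3 mock libraries in 5 of 9, against 9.49% of all genes tested. They were below all 3 mock libraries in 0 of 9, against 5.39% of all genes tested. The exact two-sided permutation test over libraries gave p = 0.1 for each of these 5 and for DUSP2, the smallest value that 3 against 3 libraries allow, and between 0.2 and 0.6 for DUSP10, SPRY4, SPRED1 and SPRED2. The 9 genes were chosen with earlier results of these libraries known, so these counts describe them and are no test of the set.

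TRPV3 replicate 1 differed from the other TRPV3 libraries unequally over these genes, and not all of them followed its length trend. The cause of these differences was not tested. On the log2 scale SPRED2, of 5154 bases, was 0.51 lower in that library than in the other TRPV3 libraries (-0.51), whereas the median gene of like length differed by -0.02. SPRED1, the longest at 8260 bases, differed by -0.22, as did the median gene of like length (-0.21), and SPRY4 differed by -0.27, against a median of -0.15. DUSP1, DUSP5 and DUSP10, of 2019, 2615 and 2914 bases, were 0.07, 0.13 and 0.10 higher in TRPV3 replicate 1, less than the medians of 0.37, 0.25 and 0.25 for their lengths. DUSP6 differed by 0.15, SPRY2 by -0.05 and DUSP4 by -0.01, against medians of -0.02, 0.25 and -0.15 for their lengths. With the trend removed, the log2 fold changes were 0.31 for DUSP5, 0.41 for DUSP6, 0.22 for DUSP4 and -0.16 for SPRED2. They were 0.15 for DUSP1, 0.12 for DUSP10, 0.10 for SPRY2, 0.15 for SPRY4 and -0.02 for SPRED1.

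**Figure D3:**
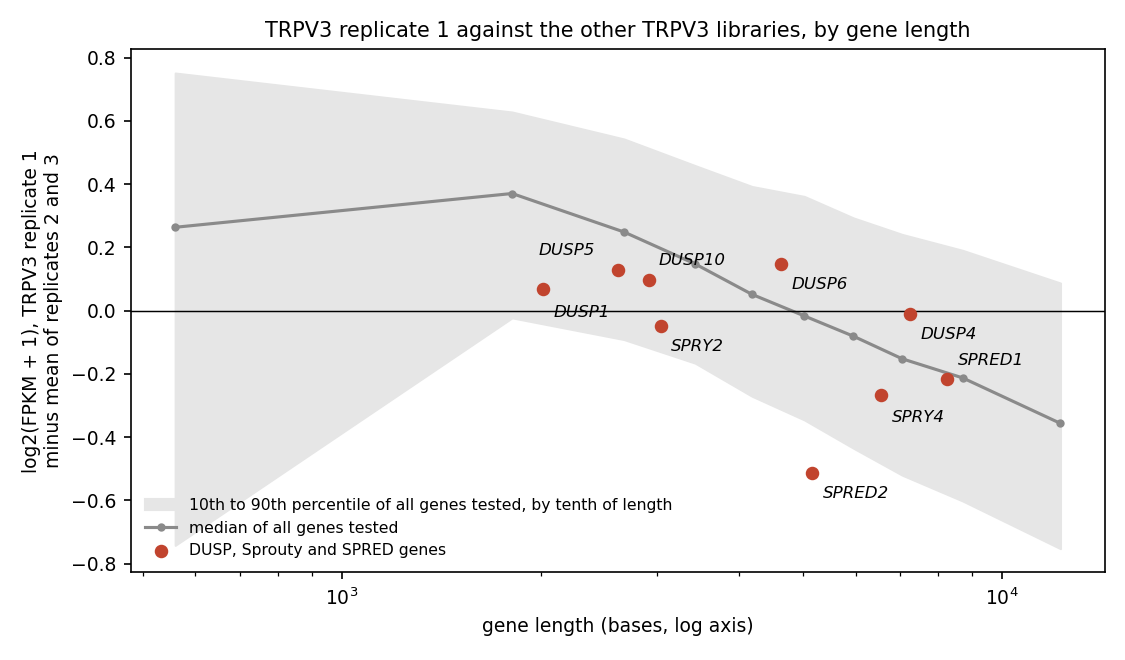
Difference of TRPV3 replicate 1 from the mean of TRPV3 replicates 2 and 3 on log2(FPKM + 1), against gene length on a log axis. The line and band give the median and the 10th to 90th percentile of all genes tested in 10 bins of length, and points are the 9 tested genes. SPRED2, at -0.51, lies below the band.

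**Figure D4:**
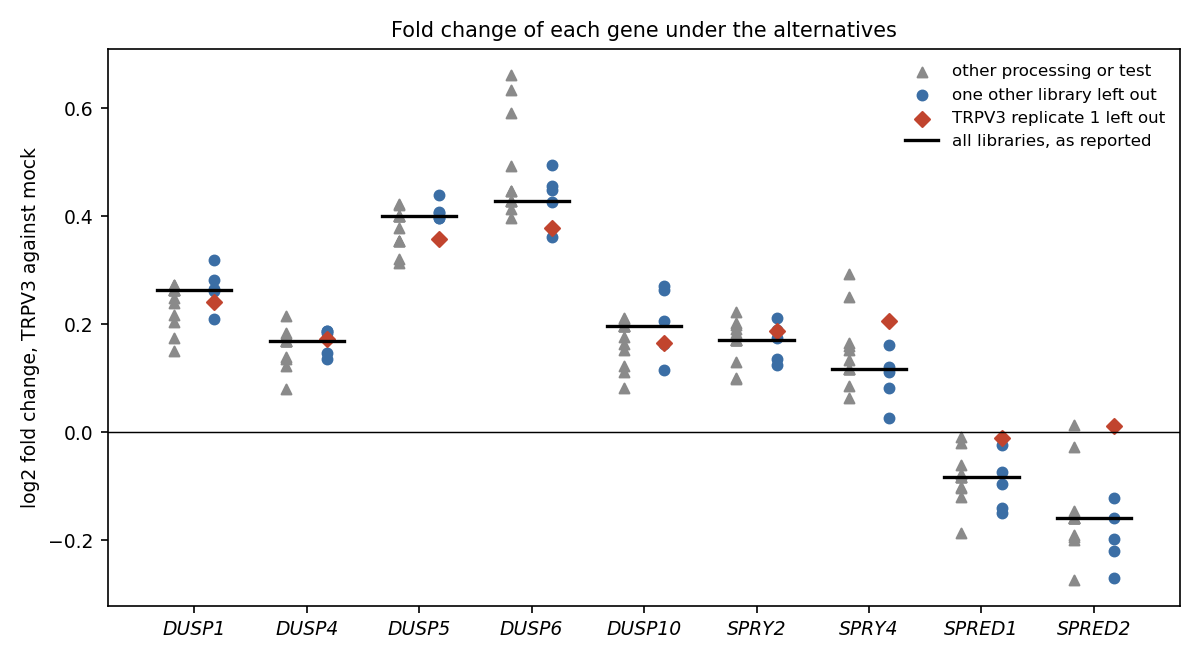
Log2 fold change of each tested gene, TRPV3 against mock, under 18 alternatives (17 for SPRY4, SPRED1 and DUSP6, which a filter of 5 FPKM removes). Black lines are the reported values, and circles and diamonds are limma fits with 1 library left out. Triangles are other processing or tests. They include voom without TRPV3 replicate 1, and limma without TRPV3 replicate 1 and mock replicate 3 together. DUSP1, DUSP4, DUSP5, DUSP6, DUSP10, SPRY2 and SPRY4 stay above 0 throughout, and SPRED2 reaches 0.01 without TRPV3 replicate 1.

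The kinases and adaptors that these proteins restrain showed little difference. Of 18 genes from RAS to ERK, all tested, 0 were called by limma, 0 had an unadjusted p under 0.05 and 0 were called by voom, and the median log2 fold change was -0.04. The tyrosine phosphatase and adaptor PTPN11, the most abundant of the list, was at 36.3, 55.0 and 56.9 FPKM with TRPV3 and 59.2, 54.9 and 49.8 FPKM in mock. The highest and lowest fold changes were those of HRAS (0.17, SE 0.18), MAP2K2 (0.09, SE 0.15) and the scaffold KSR1 (-0.29, SE 0.14, and -0.13 without TRPV3 replicate 1). A fold change above 0 was seen in 7 of 18, and in 1 of 18 with TPM scaling and 10 of 18 without TRPV3 replicate 1. Of all 12177 genes tested, 6458 were above 0 with all libraries and FPKM as deposited. Of 13 kinases of the p38 and JNK branches 0 were called by limma and 0 by voom. An unadjusted limma p under 0.05 was found for 1 of 13 (3.28% of all genes tested were higher and 1.21% lower). Their median was -0.05, and 5 of 13 were above 0, against 2 of 13 with TPM scaling and 7 of 13 with the length trend removed. MAP2K3, an activator of p38, was at 32.6, 30.8 and 28.3 FPKM with TRPV3 and 24.9, 26.2 and 26.4 FPKM in mock (log2 fold change 0.23, SE 0.08). MAPK11, a p38 kinase, had 0.12 (SE 0.21), and MAP2K6, a second activator of p38, had -0.26 (SE 0.12, and -0.17 without mock replicate 1).

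Among genes that ERK induces, FOSL1 and PLAUR had the highest fold changes. Of 18 listed, 16 were tested and 0 were called by limma, with 6 at an unadjusted p under 0.05. At that p, 3.28% of all genes tested were higher and 1.21% lower. Voom called 1 with all libraries (0.0493% of all genes were called higher) and 2 without TRPV3 replicate 1 (0.575% of all genes). FOSL1, an AP-1 subunit, was at 82.9, 74.1 and 78.0 FPKM with TRPV3 and 43.5, 44.0 and 47.9 FPKM in mock (log2 fold change 0.78, SE 0.08, limma adjusted p = 0.0605). PLAUR, the urokinase receptor, was at 21.5, 15.5 and 14.8 FPKM with TRPV3 and 10.7, 10.2 and 12.1 FPKM in mock (0.59, SE 0.15, limma adjusted p = 0.687). Without TRPV3 replicate 1 FOSL1 was called by limma (adjusted p = 0.0114; 0.0657% of all genes were called higher), and both were called by voom. The most abundant member, the chromatin protein HMGA1, was at 415, 399 and 393 FPKM with TRPV3 and 387, 401 and 402 FPKM in mock. A fold change above 0 was seen in 16 of 16, where 6458 of all 12177 genes tested were above 0. It was smallest for HMGA1 (0.02, SE 0.09) and EGR1 (0.02, SE 0.13). The count was 12 of 16 with TPM scaling or quantile normalization. It was 14 of 16 with total-read scaling or the length trend removed, with HMGA1 and EGR1 below 0 in each of those 4. The median was 0.18. The groups did not overlap in 9 of 16, all with TRPV3 above, where 9.49% of all genes tested did so.

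**Figure D5:**
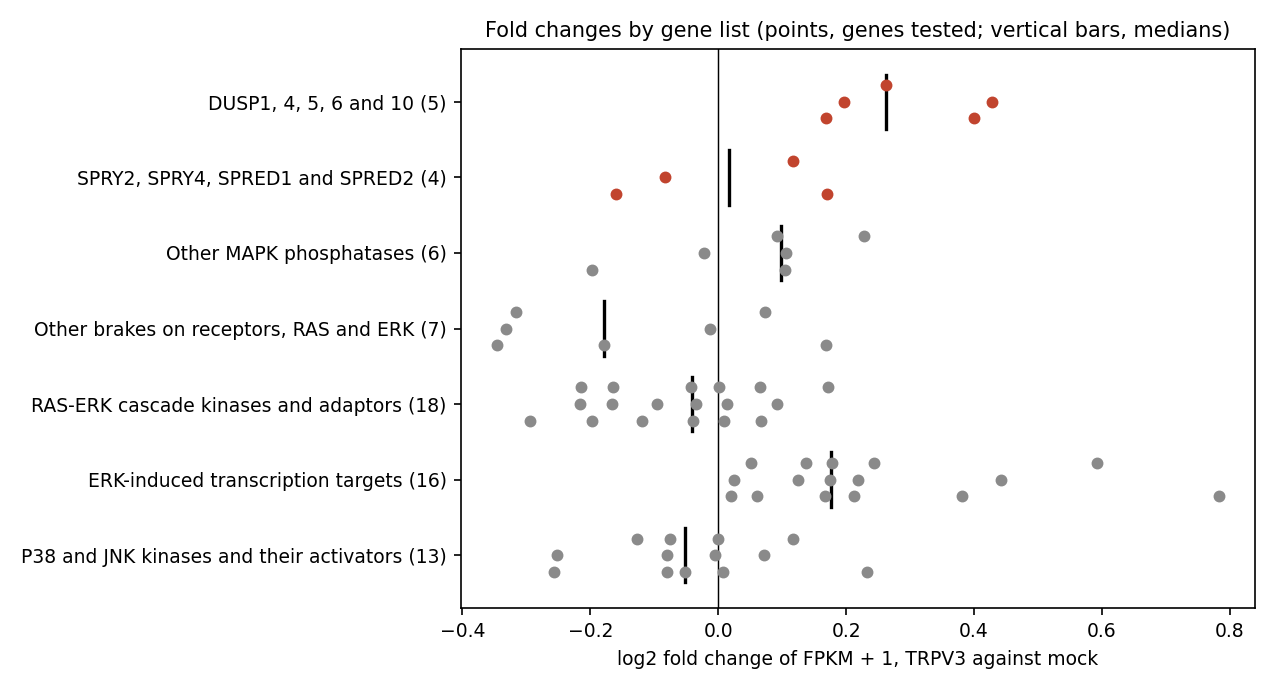
Log2 fold change of FPKM + 1, TRPV3 against mock, for the tested genes of each list (points, 1 per gene; number of genes in brackets) with the list's median (vertical bars). The 5 phosphatases (median 0.26) and the 16 ERK-induced genes (median 0.18) lie to the right of 0, and the kinases of the cascade (median -0.04) lie on both sides.

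Other phosphatases and brakes gave no call. Of 9 further phosphatases of this family 6 were tested, and 0 were called by limma or voom. An unadjusted limma p under 0.05 was found for 1 of 6 (3.28% of all genes tested were higher and 1.21% lower). The median was 0.10, with 4 of 6 above 0 under each scaling (6458 of all 12177 genes tested with FPKM as deposited). DUSP14, whose lowest TRPV3 library was above all of mock, averaged 23.1 ± 2.10 FPKM with TRPV3 and 19.5 ± 0.857 FPKM in mock (SD, n = 3 each; log2 fold change 0.23, SE 0.09). DUSP16, a phosphatase of JNK, was at 1.54, 2.83 and 2.31 FPKM with TRPV3 and 2.75, 2.78 and 2.44 FPKM in mock (-0.20, SE 0.15), with -0.04 without TRPV3 replicate 1 and -0.33 without TRPV3 replicate 2. DUSP22 had 0.11 (SE 0.13), with 0.0028 without TRPV3 replicate 1 and 0.23 without TRPV3 replicate 3. Of 12 further brakes on receptors, RAS and ERK 7 were tested, 0 were called by limma or voom, 0 had an unadjusted p under 0.05, and the median was -0.18, or 0.0017 without TRPV3 replicate 1. PEA15, which holds ERK in the cytoplasm, was at 70.7, 69.8 and 75.6 FPKM with TRPV3 and 67.0, 64.7 and 60.3 FPKM in mock (0.17, SE 0.08). NF1, the neurofibromin that SPRED proteins recruit, was at 2.51, 5.16 and 5.64 FPKM with TRPV3 and 6.41, 5.66 and 4.97 FPKM in mock (-0.35, SE 0.24). It was low in TRPV3 replicate 1, as SPRED2 was, and its log2 fold change without that library was -0.06. The RAF inhibitor PEBP1 was at 179, 147 and 142 FPKM with TRPV3 and 152, 153 and 138 FPKM in mock (0.07, SE 0.11). SPRY1, SPRY3 and SPRED3, the remaining relatives, were each under 1 FPKM.

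The genes whose levels were most like those of DUSP5 over the 6 libraries were PRNP, HSPA1A, TNIP1, PI4K2A and PMAIP1, with Pearson r of 0.995, 0.992, 0.990, 0.988 and 0.987 on log2(FPKM + 1). They were the highest of 6930 protein-coding genes averaging 5 FPKM or more, of which 125 had an r over 0.9. The points share the split into TRPV3 and mock libraries and the same depths, so r is a description. Their log2 fold changes were 0.29 for the prion protein gene PRNP, 0.44 for the heat shock gene HSPA1A, 0.43 for TNIP1, 0.14 for the lipid kinase gene PI4K2A and 0.62 for PMAIP1, which encodes the cell death protein NOXA. HSPA1A has a near-identical copy, HSPA1B, so its reads are uncertain. None of the 5 was called by limma with all libraries (lowest adjusted p = 0.101, PMAIP1).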

How the data were processed

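The 6 RNA-seq libraries were prepared from TRIzol-extracted total RNA with a NEBNext Ultra kit, per the labels' protocols. HISAT2 2.0.5 and hg38 are named in the submitters' processing notes; no source used here names the counting tool or whether strand was used. The authors deposited FPKM per gene, per the file headers, with coordinates and lengths that for all 10 genes equal GENCODE 29. Reads were recovered from FPKM times length (100% of values whole, tolerance 0.02 reads). The depth correction in the deposited FPKM followed the median ratio of genes between libraries, not the total of recovered reads. Against those totals it varied by up to 9.07% between libraries.

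Log2(FPKM + 1) was fitted by group in limma 3.58.1 (R 4.3.3) for the 12177 genes averaging 1 FPKM or more, with eBayes trend on and p-values adjusted by Benjamini-Hochberg. All adjusted p-values are from limma or its voom. P-values measure the spread between these samples. The fit was tested on simulated reads with a single spread for all genes (dispersion 0.00183) and no length trend, unlike TRPV3 replicate 1. It recovered 89.8% of genes changed 1.5-fold, and 12 of 191 calls were false. Those rates do not carry over to the libraries here. Alternatives numbered 18. Replicate numbers were not taken to pair the libraries.

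The members, lists and tests were chosen with earlier results of these data known. Text names all 10 genes; from each list the called genes, the 2 highest and the lowest fold change and the most abundant gene; and the 5 genes most like the member of lowest p. EGR1, HSPA1B, COL1A1, the other cell markers and the relatives under 1 FPKM were named outside that rule. Protein sequences were not used here. Figures were drawn with matplotlib 3.10.9.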

Additional observations from a re-analysis of the deposited data

How the results depend on the processing

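Of the 159 values of the 9 tested genes under the alternatives, 156 kept their direction and side of the threshold. DUSP5 passed it by voom without TRPV3 replicate 1 (0.38), with adjusted p-values over all alternatives of 0.0197 to 0.966. SPRED2 reversed to 0.0139 in that fit and to 0.0114 in limma without TRPV3 replicate 1, and ran from -0.271 to 0.0114 with 1 library left out. Genes called of all tested were 5 with all libraries, 2 with no filter, 3 with a filter of 5 FPKM, 10 without TRPV3 replicate 1 and mock replicate 3 together, 71 by voom without TRPV3 replicate 1, and between 2 and 8 with 1 library left out (8 without TRPV3 replicate 1, 2 without TRPV3 replicate 2 or mock replicate 1, 3 without any of the others). With the replicate number as a paired block (replicate block) 3 were called and 0 of the 9 genes. Same-numbered libraries deviated with r of -0.272, -0.0387 and -0.168, and the numbers were not taken to pair them. These r cannot show whether such libraries were prepared together, since TRPV3 replicate 1 stood apart by gene length. Of the 9 genes 0 were called throughout, except 1 by voom without TRPV3 replicate 1. Their median, 0.17, was 0.20 with 0.1 FPKM added, 0.10 with TPM scaling (which put the median of all genes at -0.08), 0.13 with total-read scaling, 0.20 by voom, 0.22 by voom without TRPV3 replicate 1, and between 0.16 and 0.21 with 1 library left out. Among 21 other named genes 23 of 373 values reversed and 9 newly passed the threshold. By voom without TRPV3 replicate 1 the reversed values were -0.00265 for DUSP22, -0.0303 for PEBP1, -0.0455 for HRAS, -0.0754 for MAP2K2, 0.0385 for PTPN11, -0.00242 for HMGA1 and -0.129 for MAPK11. With 1 library left out, PEBP1 ran from -0.0310 to 0.139, HRAS from -0.0445 to 0.289, MAP2K2 from -0.0725 to 0.200, PTPN11 from -0.279 to 0.0372, HMGA1 from -0.00278 to 0.0372 and MAPK11 from -0.0964 to 0.304, each reversed without TRPV3 replicate 1. Without that library and mock replicate 3, PEBP1 was at -0.0785 and MAP2K2 at -0.0181. TPM scaling gave -0.0239 for PEBP1, -0.00364 for MAP2K2 and -0.0775 for HMGA1, quantile normalization -0.0709 for PEBP1 and -0.210 for HMGA1, total-read scaling -0.0282 for HMGA1, and removal of the length trend -0.0481 for PEBP1 and -0.0798 for HMGA1. The cause of these changes was not tested. For DUSP2 a difference was not detectable at this depth.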
